A study of Zea mays with 24 samples.

Results

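The step from the lit middle of a maize leaf to its tip was followed in a single column of the deposited tables, here called q1 as the tables name it. The second leaf of W22 seedlings was cut into segments named by their position relative to the ligule, the joint between blade and sheath: segment +4 comes from the mature, lit middle of the blade and segment +10 from its tip, the oldest tissue. A gene was a member when its q1 level was at least 5 FPKM (fragments per kilobase of transcript, scaled to the size of the library) in at least 1 of these segments and neither table marked its test as failed or as holding too much data. That left 12160 of the 39634 genes listed. Of the members, 10337 were at 5 FPKM or more in both segments, 1157 only at +10 and 666 only at +4.

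The labels describe 6 libraries behind this step, 3 of wild-type W22 at +4 and 3 at +10, out of 24 in the series; the rest are the other segments and plants carrying dct2-1, a mutant allele of pDCT2, which encodes a chloroplast carrier of dicarboxylic acids. All plants were 9 days old and grew at 28 °C and 40% humidity, lit for 16 h at 500 umol m-2 s-1, and each replicate pooled 15 plants. The tables and labels do not say which genotype q1 is; the selection takes it as the wild type because the pDCT2 transcript (GRMZM2G086258) stood at 633 FPKM at +4 and 310.4 FPKM at +10 in q1, and at 8.91 and 9.50 FPKM in the other column, q2. Each table holds 1 pooled FPKM per gene and group, so no value per library, no SD and no test between segments exists here, and every difference below is a description. Both tables were normalised separately by the authors.

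A grass leaf grows from its base, so cells at the tip are the oldest. Cells that have left the growth zone stop loosening their walls and dividing, build chloroplasts, and in the end take apart their proteins and export the nutrients. In maize the mature blade runs C4 photosynthesis, in which mesophyll cells fix carbon into acids that bundle sheath cells break down to feed the Calvin-Benson cycle.

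The markers of lit leaf blade were high in both segments: the chlorophyll-binding protein genes lhcb3 and cab-m1 stood at 6364 and 7679 FPKM at +4 and at 1651 and 2565 FPKM at +10, and me3, NADP-malic enzyme of the bundle sheath, at 3258 and 2936 FPKM. The 6 meristem and ligule markers found were at or near 0, with highest values of 0.24 FPKM at +4 and 0.35 FPKM at +10 and with 3 and 2 of them listed at 0. The 7 markers of dividing cells summed to 17.1 FPKM at +4 and 7.30 FPKM at +10, and none exceeded 4.09 FPKM. The 4 secondary wall identifiers summed to 25.8 and 21.3 FPKM, nearly all of it cesa10, and 2 were listed at 0 in both segments. In whole tissue, a smaller share of cells of a type and less of a transcript per cell cannot be told apart.

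More transcripts were at least 2-fold lower at the tip than at least 2-fold higher. Counted by sign alone the balance was the other way, with 6625 members above 0 and 5535 below. After each column was scaled to its median over the members, 412 genes (3.39% of members) were at least 2-fold higher at +10 and 798 (6.56%) at least 2-fold lower, on the scale of log2 of FPKM plus 1. At 4-fold the counts were 59 (0.485%) and 136 (1.12%). Most transcripts moved little, with 9271 members (76.2%) within 1.5-fold and an SD of 0.64 over all log2 differences. The excess of lower genes depends on the scaling: before scaling, the median log2 ratio over members was 0.22, and without scaling 625 genes were higher and 600 lower, so that 48.98% of the calls were lower instead of 65.95%. With no filter on level, 978 genes were higher and 807 lower, or 45.2% lower.

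An upper limit for the standard error of a log2 difference came from the deposited test statistics, each of which covers the spread of both columns in its table. The error itself can be larger than this limit, which also does not cover the scaling between tables. The limit was 0.48 at the median over 12036 members. Of the higher genes with a limit, 363 of 394 differed by more than the limit and 253 by more than 2 limits. Of the lower genes, 643 of 699 and 445 did. Over all members with a limit, 3262 of 12036 differed by more than it. Genes past 2-fold were chosen for a large difference, so passing a limit of this size was largely fixed. These counts are no support for the calls. Values written after a gene below are its log2 difference, +10 relative to +4, with this limit after a plus-minus sign.

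**Figure D1:**
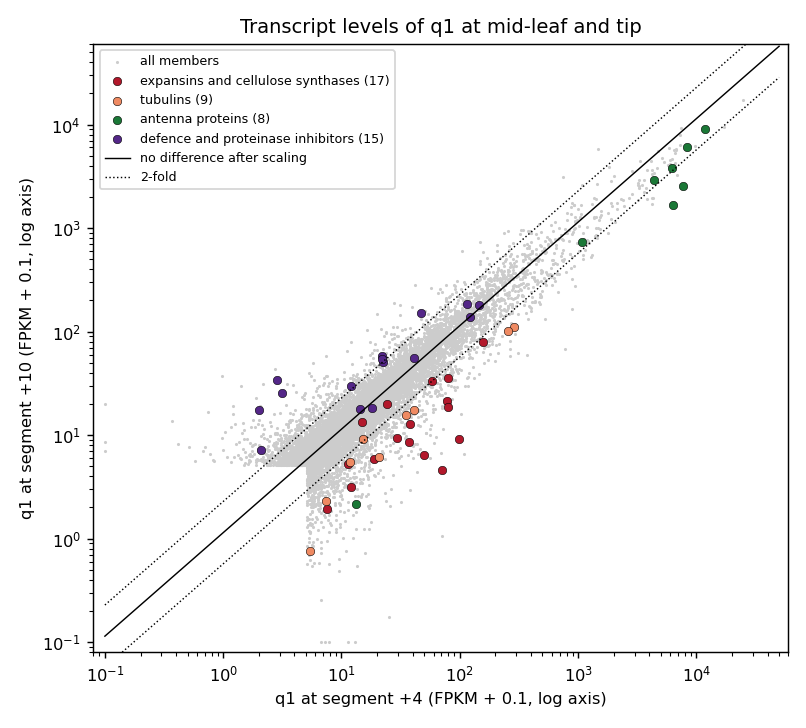
q1 level of each member at segment +4 (horizontal) and +10 (vertical), in FPKM plus 0.1 on log axes, with 4 gene lists coloured. Each point is 1 gene, the solid line is equality after scaling and the dotted lines are 2-fold on the plotted scale. By the calls, made on FPKM plus 1, 14 of the 17 wall genes are at least 2-fold lower and 8 of the 15 defence genes at least 2-fold higher. A gene close to a dotted line can therefore lie past it without a call.

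Wall loosening and wall synthesis showed the lowest medians. Of 17 expansin, xyloglucan transferase and cellulose or glucan synthase genes that were members, 14 were at least 2-fold lower at the tip, none was higher, and the median was -1.72, against 6.56% lower and a median of 0.05 over all members. These genes divide into wall loosening, with 5 of 5 lower, and synthesis of wall glucans, with 9 of 11 lower; bk2, at 14.7 and 13.3 FPKM, is in neither group. Among the loosening genes, the beta-expansin expB4 (GRMZM2G154178; chromosome 7, 41053287 to 41054911 in the deposited coordinates, whose build the sources used here do not give) went from 70.1 to 4.49 FPKM (-3.87 ± 1.28). The xyloglucan endotransglucosylase gene xth1, whose product cuts and rejoins the tethers between cellulose fibres, went from 99.3 to 8.97 FPKM (-3.51 ± 0.53). The alpha-expansins expa1 and EXPA5 went from 50.04 to 6.32 FPKM (-2.98 ± 0.50) and from 37.0 to 8.55 FPKM (-2.17 ± 0.47). All 4 were thus low but above 4 FPKM at the tip. Each differed by more than its limit, which naming them for their large falls had largely fixed.

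Among the synthases, CslF6-1, which makes the mixed-linkage glucan of grass walls, went from 79.9 to 18.4 FPKM (-2.24 ± 0.44). The cellulose synthase genes cesa2, CesA-9 and CesA-1 were lower by a similar amount: cesa2 went from 78.4 to 21.1 FPKM (-2.03 ± 0.45), CesA-9 from 12.01 to 3.08 FPKM (-1.83 ± 0.70) and CesA-1 from 29.5 to 9.18 FPKM (-1.76 ± 0.50). The cellulose synthase with the smallest difference was cesa10, a secondary wall gene, at 24.0 and 19.8 FPKM (log2 difference -0.45). The 14 lower genes thus span both the proteins that loosen primary walls and the enzymes that lay down their glucans. Read sharing between such related genes could not be checked.

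Tubulins, the subunits of the microtubules that guide cellulose deposition and pull chromosomes apart, were lower with the walls. Of 9 tubulin genes, 8 were at least 2-fold lower, against 6.56% over all members, and the median was -1.52. The abundant alpha-tubulin tua4 went from 287 to 109 FPKM (-1.57 ± 0.56), and tub5, a beta-tubulin, from 20.7 to 5.99 FPKM (-1.80 ± 0.76). The low TUB1 went from 5.35 to 0.66 FPKM (log2 difference -2.05, with no error limit to be had), and tub6 from 7.31 to 2.20 FPKM (-1.52 ± 0.90). The list of DNA replication and cell cycle genes held 12 lower genes and 1 higher of 29, but the 12 are those 8 tubulins and 4 histones.

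Histones did not move as a group: 4 of 13 were at least 2-fold lower and 1 was higher, against 6.56% and 3.39% over all members, and the median was -0.23. The lower ones were 3 identifiers named H4C7, a histone H4, and his2b2, a histone H2B (-1.57 ± 0.97). H4C7 GRMZM2G084195 went from 70.7 to 19.0 FPKM (-2.03 ± 1.86), while GRMZM2G149178 went from 43.6 to 8.08 FPKM and GRMZM2G181153 from 19.1 to 7.95 FPKM with limits of 2.88 and 3.30, larger than their differences. In the other direction, hon101, a linker histone, went from 47.3 to 133 FPKM (log2 difference 1.28). Of the other genes in the cell cycle list, cyclin-C stood at 24.2 and 27.6 FPKM and orc4 at 8.29 and 12.6 FPKM, both within 2-fold. The 7 markers of dividing cells, too low to be members, summed to 17.1 FPKM at +4 and 7.30 FPKM at +10. Of these 7, RNRS1 was nearly level, at 3.99 and 3.88 FPKM.

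Most lipid genes were lower at the tip. All 12 genes for fatty acid synthesis, desaturation, lipid transfer and cuticle had a negative difference, 8 of them at least 2-fold (6.56% over all members), with a median of -1.06; the count was 4 without scaling and 3 with no filter on level. LTP3, a lipid transfer protein, went from 25.4 to 6.93 FPKM (-1.91 ± 0.89). ACP, acyl carrier protein, went from 28.9 to 11.8 FPKM (-1.40 ± 0.65) and ACC1, acetyl-CoA carboxylase, from 82.3 to 39.2 FPKM (-1.24 ± 0.39). plt2, a phospholipid transfer protein, went from 191 to 85.8 FPKM (-1.33 ± 0.39). The cuticle gene gl1 went from 107 to 56.9 FPKM, and the desaturase genes fad6 and FAD2 from 275 to 152 FPKM and from 588 to 333 FPKM. All of these stayed above 5 FPKM at the tip. The flavonoid list had 2 of 7 lower, against 6.56% over all members: sm2 (-1.63 ± 0.66) and c2, chalcone synthase (-1.38 ± 0.40). The lignin list had 0 of 8 past 2-fold, against 9.95% of all members in either direction, and a median of -0.66. In it ccoaomt1, caffeoyl-CoA methyltransferase, differed most, at 17.2 and 9.52 FPKM.

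**Figure D2:**
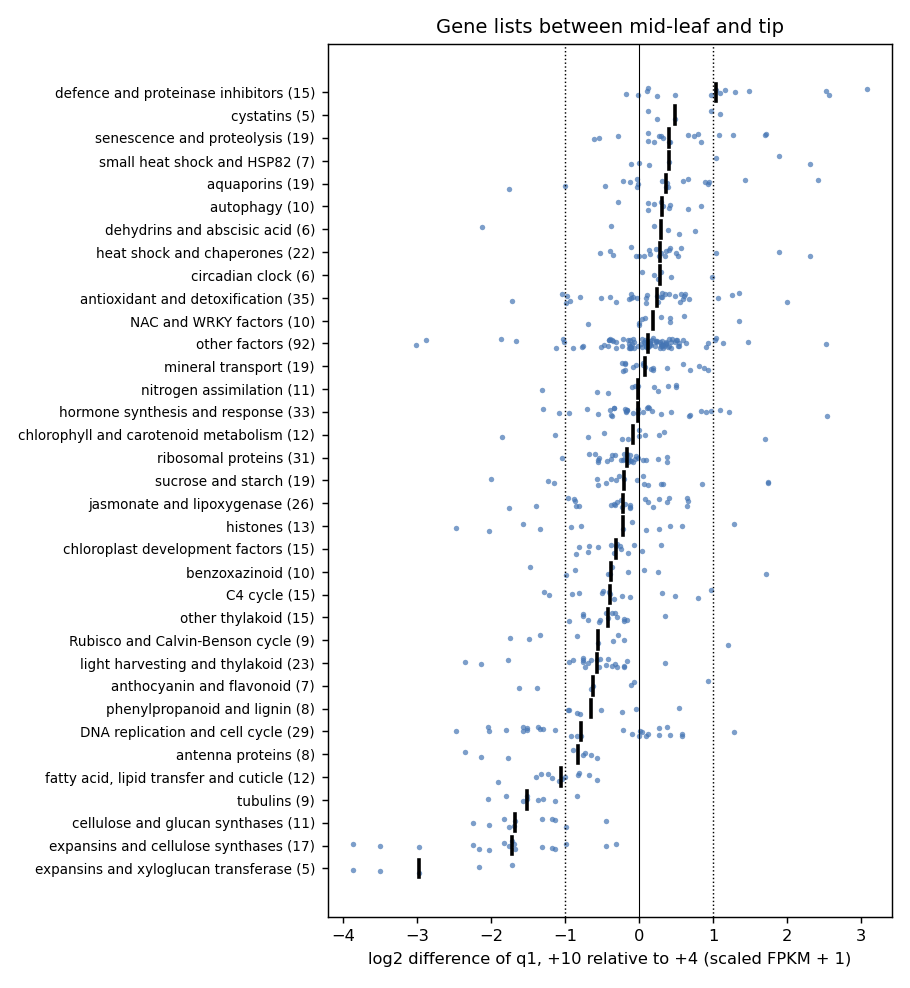
log2 difference of q1, +10 relative to +4, for the members of each gene list with at least 5 members (number in brackets). Each point is 1 gene, the black bar is the list median and dotted lines mark 2-fold; wall, tubulin and lipid lists lie lowest and the defence list highest, with medians of -1.72, -1.52, -1.06 and 1.04.

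A few of the light-harvesting genes were lower at the tip. Of 23 light-harvesting and thylakoid genes, 22 had a negative difference and the median was -0.57, yet only 3 were past 2-fold, against 6.56% over all members, all of them antenna proteins, which bind chlorophyll and pass its excitation on to the photosystems. In that group lhcb3 was lower by 2.14 ± 0.48 and cab-m1 by 1.77 ± 0.48 on the log2 scale, and the low cab48 went from 13.2 to 2.08 FPKM with an error limit larger than its difference of -2.36. The most abundant antenna gene, lhcb7, went from 11810 to 9085 FPKM (-0.57 ± 0.71) and cp29 from 8330 to 6016 FPKM (-0.66 ± 0.55). The order of the antenna genes thus changed: cab-m1 and lhcb3 ranked above lhcb5, at 4371 FPKM, in the middle and below it, at 2927 FPKM, at the tip. Together the 8 antenna genes held 5.61% of all member FPKM at +4 and 3.37% at +10.

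The rest of the thylakoid kept closer to its mid-leaf level. Of 15 photosystem, ferredoxin and ATP synthase genes none was past 2-fold, where 9.95% of all members were so in either direction. With that share, a count of 0 in a list of this size says little. Their median was -0.42, against 0.05 over all members, so they too were lower. Among them psad1, a photosystem I subunit, differed most, from 1222 to 717 FPKM (-0.96 ± 0.41). The psbs1 gene, whose product sheds excess light energy as heat, stood at 3243 and 2564 FPKM, and fdx3, a ferredoxin, was the single member with a positive difference. The 7 plastid-encoded members had a median of 0.37 and none past 2-fold, beside the same share of 9.95%. Factors of chloroplast development also had none of 15 past 2-fold, beside that share, with a median of -0.31. PPR10, an RNA-binding protein of chloroplasts, differed most, at 18.4 and 11.1 FPKM.

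Among pigment genes past 2-fold, those of chlorophyll synthesis were lower at the tip and a gene of its breakdown was higher. oy1, a subunit of the magnesium chelatase that commits porphyrin to chlorophyll, went from 160 to 49.5 FPKM (-1.86 ± 0.39). les22, uroporphyrinogen decarboxylase of the same pathway, went from 103 to 15.8 FPKM (-2.82 ± 0.41). BCH2, a beta-carotene hydroxylase, went from 90.4 to 46.3 FPKM (-1.14 ± 0.40). Against these, SGR2, a stay-green type gene of chlorophyll breakdown, went from 2.00 to 9.79 FPKM (1.70 ± 0.64). Of the 12 members of the pigment list, 2 were lower, oy1 and BCH2, and 1 higher, SGR2, against 6.56% and 3.39% over all members. The list median was -0.08, which was 0.11 without scaling. That list does not hold les22, nor the protoporphyrinogen oxidase genes prpo1, from 94.4 to 41.2 FPKM (log2 difference -1.36), and prpo2, at 11.5 and 9.04 FPKM, which were named after their values were seen.

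In the Calvin-Benson cycle the Rubisco genes stood apart from the others. Rubisco fixes carbon dioxide in bundle sheath chloroplasts, and both of its small subunit genes were lower at the tip: rbcS went from 4212 to 1704 FPKM (-1.49 ± 0.46) and ssu1 from 4326 to 1936 FPKM (-1.35 ± 0.51). The activase gene rca3 went the other way, from 83.2 to 219 FPKM (1.20 ± 0.40), while the related rca1 stayed at 1566 and 1457 FPKM. In all, 3 of 9 members were lower and 1 higher, against 6.56% and 3.39% over all members. The 8 with a negative difference included gpa1 and gpb1, chloroplast glyceraldehyde phosphate dehydrogenase. Reads of the near-identical small subunit genes may have been split between them by the counting.

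Most of the C4 cycle stayed within 2-fold. Of 15 members, 2 were at least 2-fold lower, against 6.56% over all members, none was higher, and the median was -0.39 (-0.20 without scaling). Both were carriers of the chloroplast envelope: pOMT1, which exchanges oxaloacetate and malate in mesophyll cells, went from 877 to 407 FPKM (-1.29 ± 0.42), and pDCT2, the bundle sheath carrier, went from 633 to 310.4 FPKM (-1.22 ± 0.44). The related pDCT1 went from 169.6 to 109.0 FPKM (-0.82 ± 0.39). The enzyme genes mdh6 and me3 stayed closer to their mid-leaf levels, with mdh6, NADP-malate dehydrogenase, at 2145 and 1740 FPKM (-0.49 ± 0.48) and me3 at -0.34 ± 0.59.

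Members of the C4 list that regulate enzymes had no negative difference past 2-fold either. PPCK1, a kinase that activates phosphoenolpyruvate carboxylase, went from 53.5 to 120.3 FPKM (0.97 ± 0.40), PPCK2 from 3.37 to 7.41 FPKM (0.79 ± 0.60), and pdrp1, the regulator of pyruvate phosphate dikinase, stayed at 739 and 770 FPKM (-0.13 ± 0.42). The gene alt (GRMZM2G088064) stood at 11.8 and 6.69 FPKM (-0.91 ± 0.67). Of the identifiers with no usable name in the list, GRMZM2G121878 stood at 6572 and 5261 FPKM, GRMZM2G348512 at 1192 and 1022 FPKM, GRMZM2G174107 at 1552 and 1350 FPKM, GRMZM2G146677 at 7.23 and 6.83 FPKM, GRMZM2G094452 at 14.1 and 20.1 FPKM and GRMZM2G001696 at 863 and 1371 FPKM. None of these differed 2-fold. The genes for phosphoenolpyruvate carboxylase, pep1, and pyruvate phosphate dikinase, pdk1, are no members because the +4 table marks them as holding too much data; at the tip they stood at 10125 and 33656 FPKM. PPCK3, PPCK4 and the other identifiers named alt or Pep1 were below 5 FPKM in both segments.

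Marker sums of both photosynthetic cell types were lower at the tip, but the markers did not move together. The 9 mesophyll identifiers with a value in both segments summed to 24428 FPKM at +4 and 12462 FPKM at +10, and the 8 bundle sheath ones to 15118 and 10092 FPKM. The largest falls in FPKM within these sums were those of lhcb3 and cab-m1 and of rbcS and ssu1, described above. On the log2 scale, mesophyll pOMT1 (-1.29), mdh6 (-0.49) and pdrp1 (-0.13) were lower, and the low GRMZM2G097821 (0.50) was higher. In the bundle sheath set, pDCT2 (-1.22), me3 (-0.34) and rca1 (-0.29) were lower, while rca3 (1.20) and GRMZM2G001696 (0.48) were higher. The abundant pep1 and pdk1 genes, with no usable value at +4, are not in the mesophyll sum. The part of cell type shares in the C4 and antenna differences was not tested.

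Of 19 sucrose and starch genes, 2 were at least 2-fold higher and 3 lower, against 3.39% and 6.56% over all members. sus1, a sucrose synthase, went from 23.1 to 5.75 FPKM (-2.01 ± 0.55), and the vacuolar invertase ivr2 from 182 to 87.3 FPKM (-1.24 ± 0.42), and the third lower gene, zpu1, a pullulanase type starch debranching enzyme, from 5.78 to 2.36 FPKM. Genes of the same kind differed: the sucrose synthase sus2 stood at 4.01 and 9.05 FPKM and the invertase IVR1 at 17.1 and 20.5 FPKM. On the other side, the cell wall invertase incw1, which splits sucrose outside the cell, went from 7.67 to 31.9 FPKM (1.75 ± 0.56), and AGA1, an alkaline alpha-galactosidase, from 12.1 to 48.6 FPKM (1.74 ± 0.78). The sucrose carrier sut1 stayed at 295 and 365 FPKM. In nitrogen assimilation gs2, a glutamine synthetase, was the single gene of 11 past 2-fold, from 429 to 197 FPKM (-1.31 ± 0.40).

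A few genes of protein breakdown were among the higher ones. Of 19 senescence and proteolysis genes, 16 had a positive difference, 4 were at least 2-fold higher (3.39% over all members) and none was lower, with a median of 0.40. ccp1, a cysteine protease, went from 29.2 to 111.1 FPKM (1.71 ± 0.40). see2b, a vacuolar processing enzyme that activates other proteases, went from 53.2 to 148.0 FPKM (1.27 ± 0.42), and the cysteine protease mir3 from 78.6 to 191 FPKM (1.08 ± 0.39). SGR2, given above, is the fourth, and acts on chlorophyll. At 2.00 FPKM at +4, SGR2 passed the level filter only through its value at the tip. All but 1 of the 10 autophagy genes also had a positive difference, none past 2-fold, with a median of 0.30; Atg8e, a protein that coats autophagosomes, differed most, from 160 to 326 FPKM (0.83 ± 0.39). Among 5 cystatins, inhibitors of such proteases, cc3 went from 21.8 to 54.3 FPKM (1.09 ± 0.55).

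Defence genes had the highest median of the lists, 1.04 over 15 members, with 8 at least 2-fold higher and 0 lower, against 3.39% higher over all members. The median was 0.54 with a minimum of 1 FPKM and 0.12 with no filter on level. chn1, a chitinase that digests fungal walls (GRMZM2G453805; chromosome 3, 212009198 to 212010553 in the deposited coordinates), went from 2.72 to 34.1 FPKM (3.07 ± 0.69), and pr5, a thaumatin-like pathogenesis protein, from 1.90 to 17.5 FPKM (2.52 ± 0.99). MPI, a proteinase inhibitor, went from 46.8 to 151.5 FPKM (1.49 ± 0.44). The terpene synthase gene tps10 stood at 3.01 and 25.6 FPKM (log2 difference 2.57), but its limit, 5.496, is larger than that. TPS3, whose difference of 1.04 is the list median, has a limit of 3.64, and TPS2 (1.16) has none. Of the 14 list members with a limit, 7 differed by more than it. Of the 8, chn1, pr5, tps10 and chitinase2 were under 5 FPKM in the middle, and passed the level filter only through their value at the tip. In the benzoxazinoid pathway, which makes the main chemical defence of maize seedlings, bx1, its first step, went from 237 to 890 FPKM (1.71 ± 0.46), while glu2, a glucosidase that releases the active compound, went from 1285 to 524 FPKM (-1.48 ± 0.43). The other 8 of its 10 members were within 2-fold. In the jasmonate list, lox1, a lipoxygenase, went from 9.63 to 2.47 FPKM (-1.77 ± 0.63) and aos2, allene oxide synthase, from 7.56 to 2.60 FPKM (-1.40 ± 0.79); the other 24 of 26 stayed within 2-fold.

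Of 22 heat shock and chaperone genes, 3 were at least 2-fold higher, against 3.39% over all members: hsp18 went from 31.1 to 179.7 FPKM (2.31 ± 0.45), hsp82 from 6.36 to 29.9 FPKM (1.89 ± 0.45) and hsp18c from 3.45 to 9.15 FPKM (1.03 ± 0.66). These proteins hold or refold damaged proteins, and the other 19 stayed within 2-fold. As hsp18c was under 5 FPKM at +4, it passed the level filter only through its value at the tip. Among antioxidant and detoxification genes 4 of 35 were higher and 2 lower, against 3.39% and 6.56% over all members. GST39, a glutathione transferase, went from 7.47 to 37.2 FPKM (2.00 ± 0.52) and trh2, a thioredoxin h, from 327 to 951 FPKM (1.35 ± 0.39). The transferase gst5 went from 17.4 to 48.7 FPKM (1.25 ± 0.41), whereas gst19 went from 37.6 to 12.2 FPKM (-1.72 ± 0.45). The iron store fer1, a ferritin, went from 147.5 to 727 FPKM (2.10 ± 0.43). dhn2, a dehydrin, was the single member of 6 in its list past 2-fold, from 266 to 68.5 FPKM (-2.13 ± 0.43). Of 19 aquaporins, channels for water and small solutes, 2 were higher and 2 lower, again against 3.39% and 6.56%. ZmPIP2-5 went from 1.38 to 13.0 FPKM (2.42 ± 1.16), pip2f from 5.22 to 17.8 FPKM (1.42 ± 0.59), pip2c from 215.8 to 122.5 FPKM (-1.00 ± 0.39) and the low tip2 from 5.33 to 1.03 FPKM.

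Hormone and regulatory genes mostly kept their level, with a few large exceptions. CKX10, a cytokinin oxidase that degrades the hormone which delays leaf ageing, went from 42.0 to 283 FPKM (2.54 ± 0.48), the largest difference of the 33 hormone genes. Of these 33, 3 were higher and 2 lower, against 3.39% and 6.56% over all members. AUX35, an Aux/IAA type gene of auxin response, went from 39.8 to 17.8 FPKM (-1.30 ± 0.50), while the related AUX15 went from 4.11 to 12.3 FPKM (1.22 ± 0.63). RR4, a response regulator of cytokinin signalling, stood at 5.47 and 2.37 FPKM (-1.09 ± 0.86). Of 10 NAC and WRKY factors, families that include regulators of senescence, NAC75 alone was past 2-fold, from 4.95 to 15.9 FPKM (1.34 ± 0.64). Among 92 other transcription factors 5 were higher and 7 lower, against 3.39% and 6.56% over all members. MYBR87 went from 27.7 to 187 FPKM (2.53 ± 1.21), zmm19, a MADS-box gene, from 23.1 to 2.66 FPKM (-2.88 ± 0.70), MYB30 from 11.9 to 2.94 FPKM (-1.87 ± 0.65), and EREB71 from 9.40 to 0.39 FPKM. The clock list, which includes the light-signalling genes PhyB1 and PIF5, had a positive difference for all 6 members (5 with the median log2 ratio set to 0). None of the 6 was past 2-fold, against 9.95% of all members in either direction. PIF5 was highest, at 11.8 and 27.7 FPKM (0.98 ± 0.42), and PhyB1 lowest (0.03 ± 0.58). Ribosomal protein genes stayed near the bulk, with 1 of 31, rpl29, past 2-fold (-1.04 ± 0.38) and a median of -0.17 that became 0.01 without scaling. No gene of 19 in mineral transport was past 2-fold, against 9.95% of all members in either direction. ZIP4, a metal transporter, came nearest (0.93 ± 0.53). The single photorespiration gene, go1, glycolate oxidase, stayed at 178 and 233 FPKM.

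The most abundant members were photosynthetic or unnamed. At the middle they were AC216353.2_FG005, at 24874 FPKM, AC207722.2_FG009, lhcb7, GRMZM2G092311 and cp29, and at the tip AC216353.2_FG005, at 17371 FPKM, AC207722.2_FG009, GRMZM5G825759, lhcb7 and GRMZM2G010884. Above a mean of 1000 FPKM, 11 of 104 members were at least 2-fold lower and 3 higher, against 6.56% and 3.39% over all members. The median there was -0.45, against 0.05 in each of the lower ranges. The 3 higher ones, named after their values were seen, were bss1, from 1462 to 5787 FPKM (1.79 ± 0.43), GRMZM2G022958, from 744 to 3136 FPKM, and GRMZM2G164229, from 1081 to 2606 FPKM. The 100 most abundant members held 45.8% of member FPKM at +4 and 38.5% at +10.

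Several named genes among the largest differences belong to no list. Lower at the tip were gar2, from 55.4 to 5.96 FPKM (-3.19 ± 0.59), ERD3, from 25.98 to 2.92 FPKM (-2.95 ± 0.85), gl4a, from 62.3 to 9.54 FPKM (-2.76 ± 0.49), and BURP4, from 56.4 to 9.85 FPKM (-2.58 ± 0.55). The extremes without a usable name were GRMZM2G004699, from 70.0 to 0.96 FPKM, GRMZM2G050875, from 25.2 to 0.07 FPKM, GRMZM2G474468, from 0.87 to 37.0 FPKM (4.205 ± 1.31), and GRMZM2G341658, from 1.32 to 29.5 FPKM (3.57 ± 0.61). Full on or off states were rare: 18 members went from under 1 FPKM at +4 to at least 5 at +10, and 36 the other way. At the edge of the selection, 44 of the 457 members whose higher value lay between 5 and 5.5 FPKM were past 2-fold, and 43 of the 505 genes between 4.5 and 5 FPKM just outside it.

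The 2 other segments show where these genes had been along the leaf. Of the 798 lower genes, 452 (56.6%) had their highest q1 level at -1, the zone where the leaf turns from importing to exporting sugar. Another 208 (26.1%) were highest at the base, -4, and 138 (17.3%) at +4. Over all members, 18.8% peaked at -1, 45.6% at -4 and 6.40% at +4. A gene lower at the tip cannot peak there, and the +4 value enters both counts, so these are descriptions. Of the 17 wall genes, 13 were highest at -1, 3 at -4 and 1 at +4. For the first course, expB4 stood at 21.1 FPKM at -4, 157.8 at -1, 70.1 at +4 and 4.49 at +10, and cesa2 at 82.3, 223.8, 78.4 and 21.1 FPKM. cesa3 was highest at the base, at 46.1, 16.9, 11.3 and 5.13 FPKM, and expa1 at +4, at 0.77, 31.3, 50.04 and 6.32 FPKM. The base held the highest level of 8 of 9 tubulins and 13 of 13 histones, against 45.6% of all members. tua4 was lower in each successive segment, at 1954, 437, 287 and 109 FPKM, tub3 was highest at -1, and some histones were higher again beyond -1, as hon101 was, at 545, 21.3, 47.3 and 133 FPKM. lhcb3 and rbcS were instead on a plateau, with 6816 and 3890 FPKM at -1 and 6364 and 4212 FPKM at +4.

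Of the 412 higher genes, 362 (87.9%) had their highest level at +10, 38 at -4 and 12 at -1, while over all members 29.2% peaked at +10 and 45.6% at -4. A gene higher at +10 than at +4 cannot peak at +4, so the selection fixes part of this count. see2b was higher in each successive segment, from 6.56 FPKM at -4 and 8.97 at -1 to 53.2 at +4 and 148.0 at +10. The bss1 transcript was low in the lower segments, at 1.32 FPKM at -4 and 4.34 FPKM at -1, before 1462 and 5787 FPKM. ccp1 and fer1 were flat until the tip, with fer1 at 193.7, 128.3 and 147.5 FPKM before 727 FPKM. chn1 was close to 0 at the base, 0.03 FPKM, and stayed under 4 FPKM up to +4. Levels from all 4 tables are as deposited, and the tables were normalised separately.

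**Figure D3:**
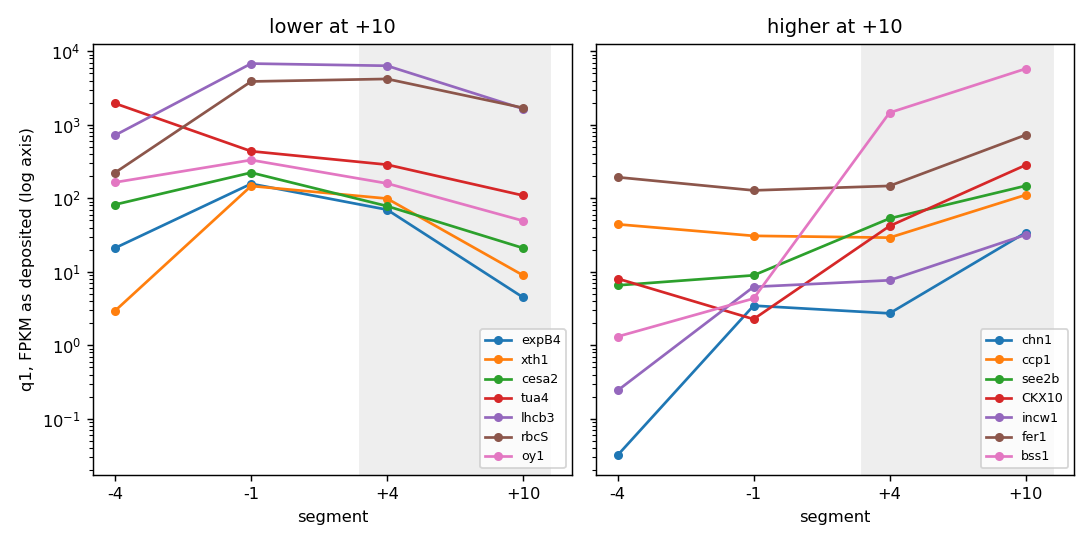
q1 level in FPKM as deposited (log axis) over the 4 segments for 7 genes lower and 7 genes higher at +10 than at +4; points are 1 pooled value each, lines join a gene's values and the grey band marks the step described. expB4, xth1 and cesa2 were highest at -1, tua4 at -4, and all 7 genes of the right panel were highest at +10.

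The q2 column gave a second, separate set of libraries over the same step, and its differences were smaller. The labels name only wild type and dct2-1, so q2 would be dct2-1 if q1 is the wild type. It is then no repeat of q1, because the genotype differs between the columns. Of its 11756 members, 202 (1.72%) were at least 2-fold higher at +10 and 258 (2.19%) lower, with an SD of 0.46. Over the 10821 genes that were members in both columns the differences correlated across genes (Pearson's r = 0.61, Spearman's rho = 0.57), given as a description because genes are not replicates and each table was normalised over both columns. Of the 331 higher q1 genes that were q2 members, 83 (25.1%) were also past 2-fold in q2 and 277 had a positive difference; of the 151 higher q2 genes that were q1 members, those 83 were 55.0%. Of the 469 lower q1 genes in q2, 140 (29.9%) were past 2-fold and 433 negative, and these 140 were 60.3% of the 232 lower q2 genes in q1. The median of the lower genes present in both was -1.31 in q1 and -0.73 in q2, though the q1 genes were chosen for their q1 difference. Whether the columns differ in size of step was not tested.

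The lists were counted in q2 as well, and their differences from q1 were not tested. In q2, 9 of 11 wall genes were at least 2-fold lower, with a median of -1.51, and 4 of 19 proteolysis genes higher, with a median of 0.32. The lipid list had 1 of 11 lower, with a median of -0.39, and the tubulins 3 of 6, with a median of -0.88. The heat shock list had none of 22 past 2-fold in q2, where hsp18 stood at 708 FPKM already at +4 and 1105 FPKM at +10 and hsp82 at 133 and 117 FPKM. Likewise fer1 stood at 745 and 547 FPKM and bss1 at 593 and 560 FPKM in q2. For pDCT2 both q2 levels were near 9 FPKM.

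The genes past 4-fold in the same direction in both columns were few, 7 higher and 13 lower, where q2 alone had 34 higher (0.289% of its members) and 40 lower (0.34%). The highest ranked were GRMZM2G133483, from 1.99 to 18.5 FPKM in q1 and from 0.05 to 14.1 in q2, though with an error limit of 7.76, and GRMZM2G168502, GRMZM2G032807, GRMZM2G412604 and GRMZM2G341658, which were higher by 2.52, 2.64, 2.66 and 3.57 in q1 and by 2.46, 2.39, 2.31 and 2.07 in q2 on the log2 scale. On the lower side were GRMZM2G050875, zmm19, GRMZM2G139786, GRMZM2G389567 and xth1. zmm19 was nearly the same in both columns, at 23.5 and 2.83 FPKM in q2, and xth1 went from 17.3 to 2.67 FPKM there. GRMZM2G139786 was the most abundant of them, from 883 to 166.5 FPKM in q1 and from 124.3 to 18.8 FPKM in q2, and GRMZM2G389567 went from 46.2 to 7.22 FPKM in q1.

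**Figure D4:**
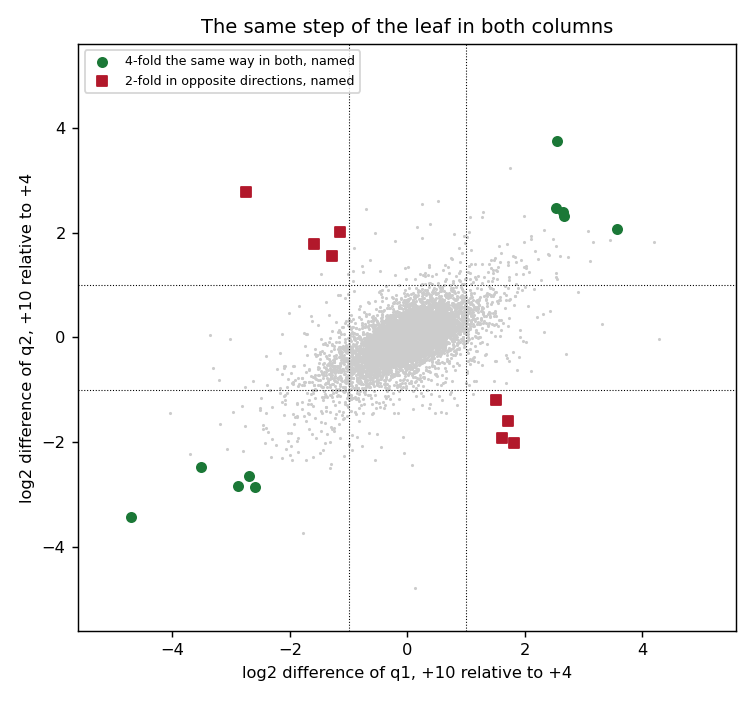
log2 difference, +10 relative to +4, of q1 (horizontal) and q2 (vertical) for the 10821 genes that were members in both columns; each grey point is 1 gene and dotted lines mark 2-fold. Green circles are the 10 named genes past 4-fold the same way in both columns and red squares the 8 named genes past 2-fold in opposite directions.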

How the data were processed

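GSNAP and Cuffdiff are the tools named for these RNA-seq libraries of maize W22 leaf segments, per the submitters' processing notes; neither their versions nor the build is stated there. The authors deposited 1 table per segment with, per the file headers, an FPKM value for each of the groups q1 and q2, pooled over replicates, and a test statistic, a signed score. Replicates are separate pools of plants per the labels. Depth per library is unknown, so no interval for counting error is given. No other column of per-sample values was found. Strand and shared reads are not described in the sources used here, so values of near-identical genes, such as histones, tubulins and rbcS, are uncertain.

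The tables were joined on the gene identifier. At +4, 2 genes marked as holding too much data and 1 failed gene, cncr1, were dropped. q1 of each table was scaled to its median over members (13.1 FPKM at +4, 15.0 at +10), both to the geometric mean of these medians, and compared as log2((a + 1)/(b + 1)); a fold on this scale understates changes of low genes. A call is a difference of at least 2-fold. A gene under 5 FPKM in 1 segment is a member only through its value in the other. The error limit of a gene is the root of the summed squares of the standard errors that the deposited statistics of both tables imply for log2(q2/q1). The calculation was tested on simulated data. A RefSeq gene table (Zm-B73-REFERENCE-NAM-5.0) matched 18775 of 39634 identifiers and gave 2684 of them a usable name (1413 of the members); its coordinates were not used, and no sequences are shown.

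Members, lists and tests were chosen with earlier results of these data known. Of the lists, 27 were written by pathway and 9 split off after values were seen; 61 gene and list pairs whose name belongs to another gene were removed, among them prpo1 and prpo2 from the defence list after its results were seen. Named genes are every C4 gene; the 12 largest rises and falls with a name and at least 20 FPKM; up to 4 members per list past 2-fold with the largest difference, or the 1 largest; up to 2 unnamed identifiers per direction; the 5 most abundant per segment; up to 5 per direction past 4-fold in q1 and q2; and up to 4 per direction past 2-fold in opposite directions. Of these, 1 is not reported here. Others were added after their values were seen: 1 or a few members of a list shown for contrast. Alternatives were no scaling, 2 other scalings, pseudocounts of 0.1 and 5 FPKM, minimum levels of 1 and 20 FPKM or none, genes with status OK in both tables, and a 4-fold call. Python 3.11.15, pandas 2.3.3, numpy 2.4.6, scipy 1.17.1 and matplotlib 3.10.9 were used.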

Additional observations from a re-analysis of the deposited data

Results flagged for a closer look

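Genes past 2-fold in opposite directions in q1 and q2 numbered 11, and the 8 below are the largest per direction; each column has 1 pooled value per segment, so the differences between columns were not tested. The value after each gene is the q2 difference minus the q1 difference on the log2 scale. Higher at the tip in q1 and lower in q2 were bx1, the first step of benzoxazinoid synthesis, from 237 to 890 FPKM in q1 and from 28.4 to 10.0 FPKM in q2 (-3.31), GRMZM2G042118, from 6.84 to 30.1 FPKM and from 41.6 to 11.1 FPKM (-3.82), GRMZM2G083711, from 26.2 to 93.6 FPKM and from 92.1 to 27.1 FPKM (-3.53), and GRMZM2G063431, from 148 to 481 FPKM and from 53.6 to 26.2 FPKM (-2.70). Lower in q1 and higher in q2 were GRMZM2G138176, from 43.9 to 6.51 FPKM and from 4.07 to 38.3 FPKM (5.53), AC206201.3_FG004, from 90.3 to 33.6 FPKM and from 0.88 to 6.11 FPKM (3.37), GRMZM2G115839, from 131.8 to 67.6 FPKM and from 3.56 to 19.8 FPKM (3.16), and GRMZM5G881498, from 26.9 to 11.9 FPKM and from 4.88 to 18.4 FPKM (2.84). For this difference between columns the standard error implied by the deposited statistics was 0.46 for bx1, 0.44 for GRMZM2G063431 and 0.55 for GRMZM2G115839, but 5.96 for GRMZM2G083711 and 2.60 for GRMZM5G881498.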

How the results depend on the processing

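No paired analysis was possible because the tables hold 1 pooled value per group and segment, and for the same reason no replicate could be left out. The counts of genes at least 2-fold higher and lower at +10, 412 and 798, became 625 higher without scaling (600 lower), 212 and 444 with a pseudocount of 5 FPKM, 228 and 342 with a minimum of 20 FPKM, 978 higher with no filter on level, and 59 and 136 at 4-fold. At a minimum of 1 FPKM they were 604 and 1143, and with the median log2 ratio set to 0, 366 and 872. The lower count of the lipid list, 8, became 4 without scaling and 3 with no filter. The lower count of tubulins, 8, became 5 with a pseudocount of 5 FPKM and 5 with a minimum of 20 FPKM, and the higher count of the defence list, 8, became 5 with a pseudocount of 5 FPKM. With prpo1 and prpo2 kept in the defence list, an alternative chosen after seeing the data, 8 of 17 were higher and 1 lower, with a median of 0.96. The counts of wall, antenna and proteolysis genes stayed within 1.5 times under the alternatives run. Of the 98 named genes past 2-fold, 92 were so without scaling, 87 with a pseudocount of 5 FPKM and 89 with no filter; no named gene past 2-fold changed sign. List medians changed sign for the pigment, hormone, jasmonate, nitrogen and ribosomal lists, each under at least 1 alternative. Unknown depth and the lack of values per library limit every difference, and the scaling between tables cannot be checked from them.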
